A study of Rattus norvegicus with 24 samples.

Results

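The livers of rotenone-treated rats on day 3 of treatment were compared with those on day 1, in 8 of the 24 arrays of the study. The arrays were taken by their labels alone, 4 rotenone livers of day 1 and 4 of day 3, and every transcript cluster of the array was compared. Male RccHan Wistar rats, aged 7 to 8 weeks, received 400 ppm rotenone in the diet or untreated food for 1, 3 or 14 days. Of the 5 animals assigned to each of the 6 groups, 4 livers were measured, 1 array each, on the Affymetrix Rat Transcriptome Array 1.0. The 8 control livers of days 1 and 3 were on untreated food and gave the same day comparison without rotenone. Each liver came from a different animal, so that a day change is a difference between animals, and whole liver was measured without separating its cell types. All groups were housed alike, 2 or 3 rats to a cage, with food and water freely given.

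Rotenone is a plant compound that blocks complex I, the NADH dehydrogenase that opens the mitochondrial respiratory chain. Liver cells use this chain to oxidise fatty acids and amino acids and to supply ATP for the making of glucose and plasma proteins. Most hepatocytes of an adult animal are out of the cell cycle, but those of a young, growing rat still divide. Between them lie Kupffer cells, which are the resident macrophages, the endothelium of the sinusoids, and stellate cells, which store vitamin A and lay down matrix.

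The comparison asked how the response of the liver on day 3 differed from that on day 1. Of 68842 transcript clusters, 439 (0.638%) differed at an adjusted p under 0.05 (limma with Benjamini-Hochberg adjustment over all clusters), 217 of them higher (0.315%) and 222 lower (0.322%) on day 3. Array medians lay between 28.9 and 35.5 intensity units, and the median log2 change of all clusters was 0.06. Over clusters at or above the median mean, arrays of 1 group correlated at 0.990 to 0.996. Centring each array on its median left 436 clusters, of which 131 were higher and 305 lower, in place of 217 and 222. With the 8 rotenone arrays fitted alone, 77 clusters passed. Leaving out 1 rotenone liver gave 229 clusters (without liver 3 of day 3) to 550 (without liver 4 of day 1), and 231 without liver 1 or without liver 2 of day 1.

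Among the 22093 genes, each read from its cluster with the highest mean, 317 (1.43%) passed, of which 150 (0.679%) rose and 167 (0.756%) fell. "Rose" and "fell" are used below only for genes past this threshold. Changes are log2 intensity on day 3 minus day 1 with the standard error of the fit after ±, each from 4 livers against 4. The fall of a gene whose day 3 livers lie at or below the median negative control probe set is given as a lower bound. The bound was computed against the median negative control probe set of each rotenone array of day 3, at 5.29, 5.14, 5.19 and 5.12. In the control livers, 2 clusters without a gene symbol (0.00291%) were lower on day 3 and 0 genes (0.0%) passed in limma, with 620 genes at an unadjusted p under 0.05 against 3572 in the rotenone livers. The day change itself differed between rotenone and control livers for 71 clusters (0.103%) and for 56 genes (0.253%), 28 in each direction (0.127% each). The median change of the same genes in control livers was -0.03 for the risen and 0.05 for the fallen.

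**Figure D1:**
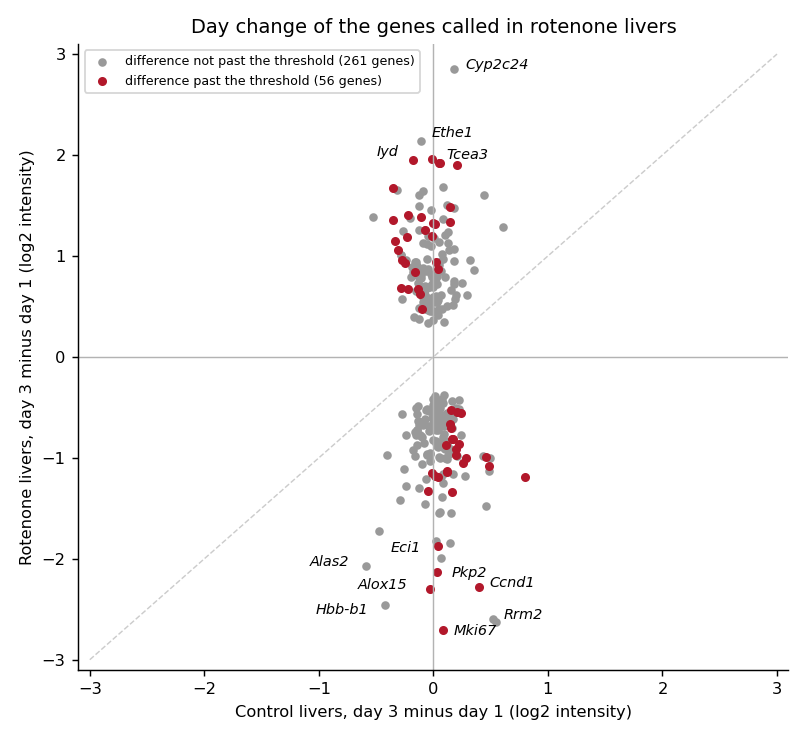
Day change in rotenone livers (vertical axis) against the day change in control livers (horizontal axis), both as log2 intensity of day 3 minus day 1, for the 317 genes called in the rotenone livers. Red points mark the 56 genes whose day change differed between rotenone and control livers, and the dashed line marks equal changes. Control changes stayed within 0.80 on the log2 scale, while rotenone changes reached 2.86 and -2.70, and no gene near 0 is drawn because it was not called.

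Genes of mitosis were among those that fell. Of 50 measured genes of mitosis and the spindle, 14 fell, 0 rose and 36 did not pass, against 0.756% of all genes that fell. The difference from the control change passed for only 1 of the 50, Mki67, against 0.127% of all genes in this direction. In 36 of the 50 the 4 livers of day 3 all lay below the 4 of day 1, which held for 5.43% of all genes, and in 26 of these 36 every liver of day 1 was above the negative control probe sets. The median change of the 50 genes was -0.52, against 0.04 over all genes, and the same genes had a median change of 0.05 in control livers. In 20 of the 50, 8 of them fallen, all 4 livers of day 3 lay at or below the negative control probe sets, and with these at their bounds the median was -0.36. Mki67 (the Ki-67 antigen of proliferating cells), the DNA topoisomerase Top2a, the mitotic kinases Plk1 and Ttk and the cyclins Ccna2 and Ccnb2 were among the fallen. The others were Kif20a, Cenpa, Casc5, Tpx2, Prc1, Ect2, Ckap2 and Hmmr, which act at the kinetochore, the spindle or in cytokinesis. Macrophage, endothelial, stellate cell and erythroid markers had lower medians too (-0.49, -0.41, -0.56 and -0.72, with 0 of 16, 3 of 13, 6 of 18 and 4 of 11 fallen, described below) and hepatocyte markers did not (-0.04), and which cells carried the division genes was not tested.

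Promoters of 4 of these fallen genes are shown because nearly all of the group shared a pair of short motifs. One is TTTGAA, the core of the cell cycle homology region, and the other CCAAT, which the factor NF-Y binds. The sequences are from RefSeq, build GRCr8, and each runs 5′ to 3′ on the strand of its gene, from 250 bases before to 50 after the start. Capitals mark both motifs on either strand, so that TTCAAA and ATTGG are their reverse complements.
Mki67 (chr1:199952544-199952843, minus strand): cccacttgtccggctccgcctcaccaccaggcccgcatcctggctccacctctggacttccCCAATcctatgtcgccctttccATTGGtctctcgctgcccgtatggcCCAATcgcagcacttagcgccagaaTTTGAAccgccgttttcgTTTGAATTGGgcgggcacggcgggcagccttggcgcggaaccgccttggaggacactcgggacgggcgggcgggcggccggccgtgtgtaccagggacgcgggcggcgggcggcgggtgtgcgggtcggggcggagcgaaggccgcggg
Top2a (chr10:84473044-84473343, minus strand): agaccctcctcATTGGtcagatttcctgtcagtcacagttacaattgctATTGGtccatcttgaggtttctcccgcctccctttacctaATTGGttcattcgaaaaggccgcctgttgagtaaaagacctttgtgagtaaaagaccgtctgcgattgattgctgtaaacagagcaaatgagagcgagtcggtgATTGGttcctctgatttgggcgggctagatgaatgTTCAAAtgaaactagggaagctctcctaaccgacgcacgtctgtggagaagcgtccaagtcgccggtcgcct
Ckap2 (chr16:76541864-76542163, plus strand): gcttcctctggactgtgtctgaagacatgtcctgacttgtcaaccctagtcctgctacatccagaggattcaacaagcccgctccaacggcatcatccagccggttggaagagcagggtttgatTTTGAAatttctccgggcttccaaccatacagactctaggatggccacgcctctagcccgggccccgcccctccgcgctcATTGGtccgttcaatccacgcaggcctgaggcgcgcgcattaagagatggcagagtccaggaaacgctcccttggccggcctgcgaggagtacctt
Ccnb2 (chr8:79981609-79981908, minus strand): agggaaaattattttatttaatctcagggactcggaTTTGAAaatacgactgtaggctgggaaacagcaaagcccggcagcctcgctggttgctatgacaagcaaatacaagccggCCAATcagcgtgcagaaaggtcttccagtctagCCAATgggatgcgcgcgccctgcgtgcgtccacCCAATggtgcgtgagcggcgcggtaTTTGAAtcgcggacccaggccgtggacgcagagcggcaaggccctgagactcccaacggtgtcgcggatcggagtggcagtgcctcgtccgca
The Mki67 promoter held 2 copies of TTTGAA and 4 of CCAAT, and one copy of each overlaps there. Those of Top2a, Ckap2 and Ccnb2 held 1, 1 and 2 copies of TTTGAA and 4, 1 and 3 of CCAAT.

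Of the 22093 measured genes, 17125 matched a RefSeq promoter. TTTGAA was present in 10 of the 11 fallen mitosis genes with a promoter (90.9%), Kif20a being the one without it, and CCAAT in all 11. Among the 32 mitosis genes that did not pass, 59.4% held TTTGAA and 65.6% CCAAT. Over the promoters of all measured genes the shares were 16.0% and 37.8%, and 6.58% held both. Over all 27457 rat promoters of this length they were 18.1% and 37.7%. The 123 fallen genes with a promoter, taken whole, held TTTGAA in 19.5% and CCAAT in 43.1%, and the 123 risen genes in 13.8% and 47.2%. Searched in the same way on both strands, the E-box CACGTG was present in 4.88% of fallen and 8.13% of risen genes against 7.70% of measured genes, and the nuclear receptor motif AGGTCA in 7.32% and 16.3% against 13.9%. These are matches of letters and say nothing of binding.

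Mki67 had the largest fall of the genes past the threshold. Its log2 intensity was 7.89, 8.38, 8.13 and 7.71 in the 4 livers of day 1 and 5.34, 5.21, 5.32 and 5.44 in those of day 3. The groups lay far apart, and every rotenone liver of either day lay below every control liver, which ranged from 8.69 to 10.37 on day 1 and from 9.17 to 9.94 on day 3. The fall was 6.51-fold (-2.70 ± 0.33, adjusted p = 0.00014), and it differed from the control change (difference -2.79 ± 0.47, adjusted p = 0.014).

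Top2a untangles DNA before chromosomes separate. It went from 6.76, 7.10, 7.26 and 6.64 on day 1 to 4.96, 4.98, 4.90 and 4.94 on day 3, at or below the negative control probe sets in all 4 livers. The fall was therefore at least 3.37-fold (adjusted p = 0.0062). Rrm2 is the small subunit of the reductase that makes deoxynucleotides. It had 7.91, 7.93, 8.46 and 7.45 on day 1 and 4.90, 5.53, 5.54 and 5.39 on day 3 (6.04-fold lower, -2.60 ± 0.46, adjusted p = 0.0062). Only liver 1 of day 3 lay below its negative control probe sets, and with that liver set to their median Rrm2 fell 5.65-fold. Its near copy Rrm2l1 fell by 2.63, and probes may not tell the copies apart. The polo-like kinase Plk1, which was chosen after its values were seen, had 6.34 to 6.62 on day 1 and 5.14 to 5.46 on day 3 (-1.16 ± 0.20, adjusted p = 0.0058).

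Fewer mitosis genes passed when single livers were left out, 4 without liver 3 of day 1, 5 without liver 2 of day 1 and 7 without liver 1 or liver 3 of day 3, but 15 at most, while the direction of the median held. The cyclin Ccna2, also chosen after its values were seen, showed this. Its livers lay at 6.77, 7.04, 7.22 and 6.38 on day 1 and at 5.31, 5.27, 5.41 and 5.23 on day 3 without overlap, with a fall of 1.55 ± 0.30 (adjusted p = 0.014), and without liver 2 or liver 3 of day 1 the adjusted p was above 0.05 and reached 0.061. The call of Ckap2, a spindle protein that fell at least 2.41-fold (adjusted p = 0.018), was likewise lost without any of 5 livers, with adjusted p up to 0.080. Near copies of Ckap2 in the genome leave its level uncertain.

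On day 1 the mean level of the 50 mitosis genes in rotenone livers was 5.60 to 5.89, below the control range of 5.99 to 6.74. On day 3 it was 5.01 to 5.18, against 6.18 to 6.59 in controls. The rotenone-minus-control median of the list went from -0.56 on day 1 to -1.15 on day 3, close to the floor of the array, where the negative control probe sets had a median of 5.25. The rotenone livers thus started below the controls and lay further below on day 3.

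Earlier steps of the cycle showed less. Of 37 genes of DNA replication and S phase, 1 fell (Rrm2) and 0 rose, against 0.756% of all genes that fell, with a median of -0.09. In rotenone livers of day 1, 11 of the 37 already had a mean below the negative control probe sets. In 7 of the 37 all 4 livers of day 3 lay at or below them, and with these at their bounds the median was -0.04. Of 21 genes of G1, 3 fell (Ccnd1, Cdk6 and the phosphatase Cdkn3) and 0 rose, with a median of -0.19, and 1 to 3 fell when 1 liver was left out, 1 in 5 of the 8 cases.

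Cyclin D1, Ccnd1, which carries cells through G1, behaved unlike the mitotic genes on day 1. Its livers lay at 9.08, 8.85, 8.68 and 8.94 on day 1 and at 6.58, 6.56, 6.45 and 6.82 on day 3, a 4.87-fold fall (-2.28 ± 0.18, adjusted p = 1.2e-06). Control livers lay between, at 6.90 to 7.47 on day 1 and 7.27 to 8.06 on day 3. Rotenone livers were therefore above all controls on day 1 and below all controls on day 3, and the day change differed from that of controls (-2.68 ± 0.26, adjusted p = 3.9e-05).

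**Figure D2:**
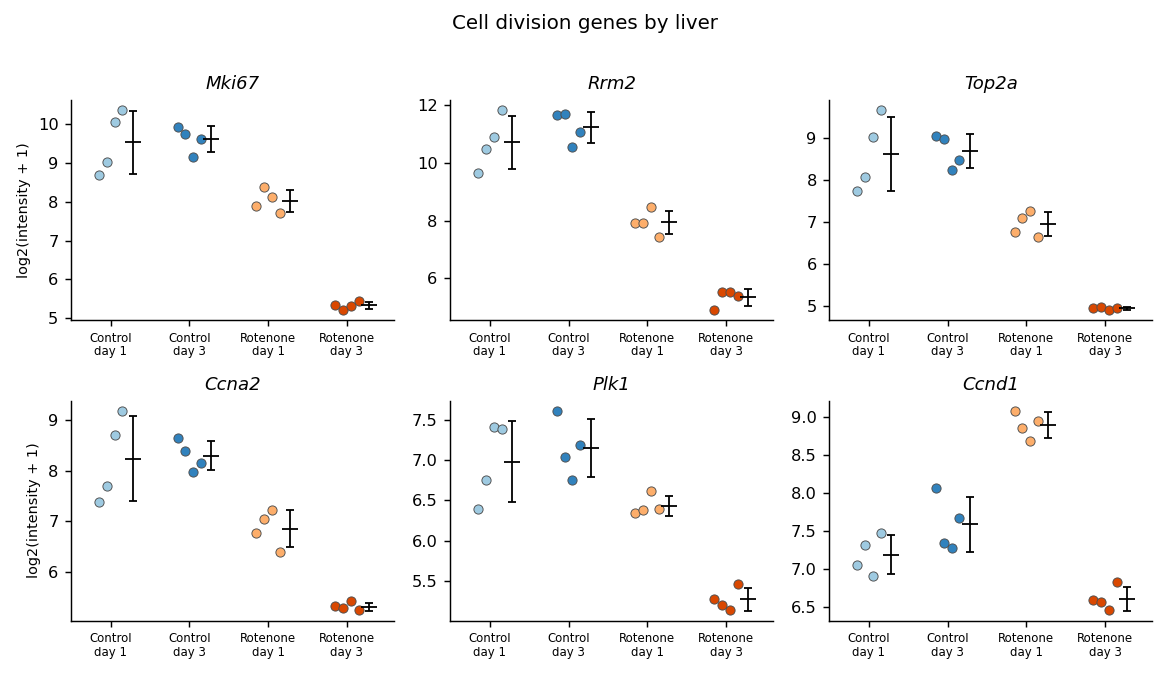
Log2(intensity + 1) of 6 cell division genes in each liver (points, 4 per group), with the mean and SD of each group (bars), in control and rotenone livers of day 1 and day 3. For Mki67, Rrm2, Top2a, Ccna2 and Plk1 the rotenone livers of day 3 lie lowest, near the median negative control probe set at 5.25, whereas Ccnd1 is highest in rotenone livers of day 1.

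Several genes of fatty acid use fell from day 1 to day 3, while most members of their lists did not pass. PPAR alpha is the nuclear receptor that switches on fatty acid oxidation in fasting. Of 23 of its targets and other fasting genes, 5 fell (Cyp4a1, Ucp2, Plin2, Acot1 and Acot2), 0 rose and the other 18 missed the threshold; the median was -0.74. Of 24 genes of fatty acid oxidation and ketogenesis, 6 fell (Eci1, Hadha, Hadhb, Acadl, Acot1 and Acot2), 1 rose (Echs1) and the other 17 missed it, at a median of -0.33. The control medians of these lists were 0.02 and -0.01. Over all genes 0.756% fell and 0.679% rose. The difference from the control change passed for 0 of the 23 genes and for 1 of the 24, which was Eci1, against 0.253% of all genes.

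Eci1, the enoyl-CoA isomerase for unsaturated fatty acids, had the largest fall. It lay at 12.38, 11.02, 11.41 and 11.41 on day 1 and at 9.69, 9.58, 9.76 and 9.69 on day 3 (3.68-fold lower, -1.88 ± 0.22, adjusted p = 0.00011). Control livers lay at 8.60 to 9.07 and 8.59 to 9.30, so Eci1 remained above all controls on day 3 while its distance from them shrank (difference of the day change -1.92 ± 0.32, adjusted p = 0.013). Hadhb, the beta subunit of the mitochondrial trifunctional protein, was chosen after its values were seen. It lay at 13.42 to 14.04 on day 1, 12.75 to 12.99 on day 3 and 11.96 to 12.62 in control livers of either day, and fell by 0.82 ± 0.14 (adjusted p = 0.0060).

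Cyp4a1, a fatty acid hydroxylase and a textbook PPAR alpha target, fell 3.54-fold, from 17.89, 16.89, 17.20 and 17.78 to 15.83, 15.51, 15.50 and 15.63 (-1.82 ± 0.38, adjusted p = 0.023). Its groups did not overlap, yet leaving out any of 5 livers, 1 or 4 of day 1 or 2, 3 or 4 of day 3, lost the call (adjusted p up to 0.096). The thioesterase Acot2 fell by 1.19 ± 0.24 (adjusted p = 0.020), with a loss of the call without liver 1 of day 1 or liver 2 or 4 of day 3 (up to 0.090). Acot1 and Acot2 are close copies, and their values are uncertain for that reason. Ucp2, a mitochondrial carrier, lay at 10.74 to 11.59 on day 1 and at 9.40 to 10.21 on day 3 (-1.30 ± 0.24, adjusted p = 0.0079), and control livers lay at 9.75 to 10.49 and 9.82 to 10.35. Ucp2 thus overlapped the controls on day 3 after lying above them on day 1, and its call held when any 1 liver was left out. For the whole fatty acid oxidation list 3 to 6 genes passed when 1 liver was left out, and for the PPAR alpha list 1 to 4.

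Cpt1a, which admits fatty acids into mitochondria, lay at 15.54, 14.31, 15.28 and 14.62 on day 1 and at 13.85, 13.84, 14.73 and 14.08 on day 3, with overlap (-0.81 ± 0.53, adjusted p = 0.56). Ppara itself (-0.08 ± 0.36, adjusted p = 0.95) and Fgf21, a fasting hormone (-0.33 ± 0.22, adjusted p = 0.57), did not pass. Echs1, the short-chain enoyl-CoA hydratase, went the other way from the list. It rose from 14.37, 14.49, 14.61 and 14.47 to 15.09, 15.25, 15.24 and 15.02 (1.59-fold, 0.67 ± 0.12, adjusted p = 0.0090), with controls at 14.88 to 15.19.

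Acacb, the acetyl-CoA carboxylase of the mitochondrial surface, makes the malonyl-CoA that holds back Cpt1a. It lay at 7.00, 7.44, 7.33 and 7.59 on day 1 and at 9.21, 8.77, 9.17 and 8.76 on day 3 (3.12-fold higher, 1.64 ± 0.25, adjusted p = 0.0020). Control livers lay at 9.43 to 10.93, above all rotenone livers of either day, and the difference from their change did not pass (adjusted p = 0.067). Acacb was the only one of 24 genes of fatty acid and triglyceride synthesis to rise, and 0 fell, with a median of 0.25. Scd, the stearoyl-CoA desaturase, was at 10.58 to 11.81 on day 1 and 8.18 to 9.80 on day 3, against 17.03 to 17.75 in controls, and did not pass (-2.34 ± 0.59, adjusted p = 0.072). Fasn (0.31 ± 0.74, adjusted p = 0.90) and its regulator Srebf1 (1.65 ± 0.56, adjusted p = 0.22) did not pass either.

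Pc, Apoa4 and Ldha fell to below the controls of day 3. Pc, the pyruvate carboxylase that starts gluconeogenesis, lay at 14.17, 13.84, 13.82 and 13.94 on day 1, where the controls lay at 13.92 to 14.32. On day 3 it lay at 12.80, 12.38, 12.82 and 12.48, against 13.92 to 14.29 (2.50-fold lower, -1.32 ± 0.14, adjusted p = 2.8e-05), and the difference from the control change was -1.27 ± 0.20 (adjusted p = 0.0066). Apoa4, an apolipoprotein of triglyceride-rich particles, lay at 15.50 to 15.74 on day 1 and 13.89 to 14.30 on day 3, against 15.48 to 16.04 in controls (-1.54 ± 0.25, adjusted p = 0.0031). Its difference from the control change did not pass (adjusted p = 0.097). Ldha, the lactate dehydrogenase subunit, fell by 0.76 ± 0.17 (adjusted p = 0.037), a call that was lost whichever 1 of the 8 livers was left out (up to 0.11) and that near copies of the gene leave uncertain. Pck1, the other early enzyme of gluconeogenesis, did not pass (-0.03 ± 0.42, adjusted p = 0.99).

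Some genes of amino acid metabolism rose, among them several that lay below the controls of day 1. On the list of amino acid breakdown and the urea cycle, 5 of 34 measured genes rose (Fah, Prodh, Bckdha, Ivd and Gcsh), against 0.679% of all genes that rose, 0 fell and the other 29 missed the threshold, at a median of 0.35 and a control median of -0.09. Of the 34, 30 had a higher mean on day 3, and 14 did not overlap between the days in that direction, against 4.98% of all genes that were apart in this direction. When 1 liver was left out, 0 to 4 of them passed, 0 without liver 1 of day 1 or liver 3 of day 3. The list is therefore described by its direction rather than by single calls. The difference from the control change passed for 0 of the 34, against 0.253% of all genes. Prodh, the proline dehydrogenase, rose by 1.39 ± 0.29 (adjusted p = 0.025), and lost the call without any of 5 livers (up to 0.11).

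Aldh4a1, the next enzyme of proline breakdown, is not on this list and was chosen after its values were seen. It lay at 13.37, 13.97, 13.86 and 13.74 on day 1, below all controls (14.79 to 14.94). On day 3 it lay at 15.19, 14.96, 15.09 and 14.96, level with or just above the controls (14.81 to 14.96). The rise was 2.49-fold (1.32 ± 0.12, adjusted p = 7e-06) and differed from the control change (1.31 ± 0.17, adjusted p = 0.0025). Upb1, the last enzyme of pyrimidine breakdown and chosen likewise, had a difference of 1.00 ± 0.13 (adjusted p = 0.0025).

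Of 20 measured genes of methionine, polyamine and creatine metabolism, 2 rose (Cth and Bhmt), 1 fell (Odc1) and the other 17 missed the threshold. Over all genes 0.679% rose and 0.756% fell. The median of the list was 0.16, with a control median of 0.03. Odc1, the ornithine decarboxylase that starts polyamine synthesis, changed by -0.58 ± 0.11 (adjusted p = 0.014). Cth, the cystathionine gamma-lyase that makes cysteine and hydrogen sulfide, lay at 17.72, 17.93, 17.51 and 18.47 on day 1 and at 18.93, 19.08, 19.04 and 18.80 on day 3. The groups did not overlap (2.08-fold higher, 1.06 ± 0.16, adjusted p = 0.0014), and the change differed from that of controls (1.36 ± 0.22, adjusted p = 0.011). Ethe1, the mitochondrial persulfide dioxygenase that clears sulfide, is on neither list and had 8.51, 9.54, 9.62 and 10.06 on day 1 and 11.58, 11.73, 11.76 and 11.20 on day 3 (4.40-fold higher, 2.14 ± 0.33, adjusted p = 0.0019). Controls lay at 11.02 to 11.67, so day 1 lay below all controls and day 3 overlapped them. The difference of Ethe1 from the control change did not pass (adjusted p = 0.065). Tstd1, a member of the thiosulfate sulfurtransferase family, rose by 1.92 ± 0.23 (adjusted p = 0.00011). Bhmt, the betaine-homocysteine methyltransferase, rose by 0.58 ± 0.11 (adjusted p = 0.015), which was lost without any of 4 livers (up to 0.075).

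Thnsl2, a threonine synthase-like enzyme, rose from 7.51, 8.07, 7.72 and 8.49 to 9.76, 9.84, 9.94 and 9.95, where the control livers lay at 9.66 to 10.14 (3.80-fold, 1.93 ± 0.18, adjusted p = 7e-06). Ddc, which makes biogenic amines from aromatic amino acids, rose from 7.03, 7.50, 7.51 and 7.56 to 8.80, 9.56, 9.32 and 9.50 (3.72-fold, 1.90 ± 0.18, adjusted p = 7e-06), still below the controls at 9.77 to 10.44. Iyd, the iodotyrosine deiodinase, rose from 10.78, 11.32, 11.98 and 12.09 to 13.44, 13.70, 13.66 and 13.17 (3.87-fold, 1.95 ± 0.21, adjusted p = 3.4e-05). Tcea3, a transcription elongation factor, lay below controls at 7.23 to 8.48 on day 1 and above them at 9.74 to 10.21 on day 3 (1.96 ± 0.20, adjusted p = 1.8e-05). For Thnsl2, Ddc, Iyd and Tcea3 the difference from the control change passed as well, at 1.87 ± 0.26, 1.69 ± 0.26, 2.13 ± 0.30 and 1.97 ± 0.28 (adjusted p = 0.0029, 0.0062, 0.0029 and 0.0039).

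Mitochondrial genes outside these pathways moved less. Idh2, the NADP-dependent isocitrate dehydrogenase of mitochondria, rose from 9.58, 10.24, 9.99 and 10.11 to 11.18, 11.39, 11.21 and 11.16, from below the controls of day 1 (10.28 to 10.40) to above those of day 3 (10.09 to 10.57) (2.39-fold, 1.26 ± 0.14, adjusted p = 3.5e-05, difference 1.33 ± 0.19, adjusted p = 0.0044). Trap1, the mitochondrial HSP90, rose by 0.72 ± 0.10 (adjusted p = 0.0011). Rotenone acts on complex I, and 33 of its 35 measured subunits had a higher mean on day 3, 12 of them without overlap (4.98% of all genes), with a median of 0.23 and a control median of -0.01. Only Ndufa10 passed (0.34 ± 0.07, adjusted p = 0.027), and it lost the call without any of 7 livers (up to 0.098) and under array-median centring. Of 34 nuclear subunits of complexes II to V, 32 had a higher mean, with a median of 0.21, and 0 passed.

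**Figure D3:**
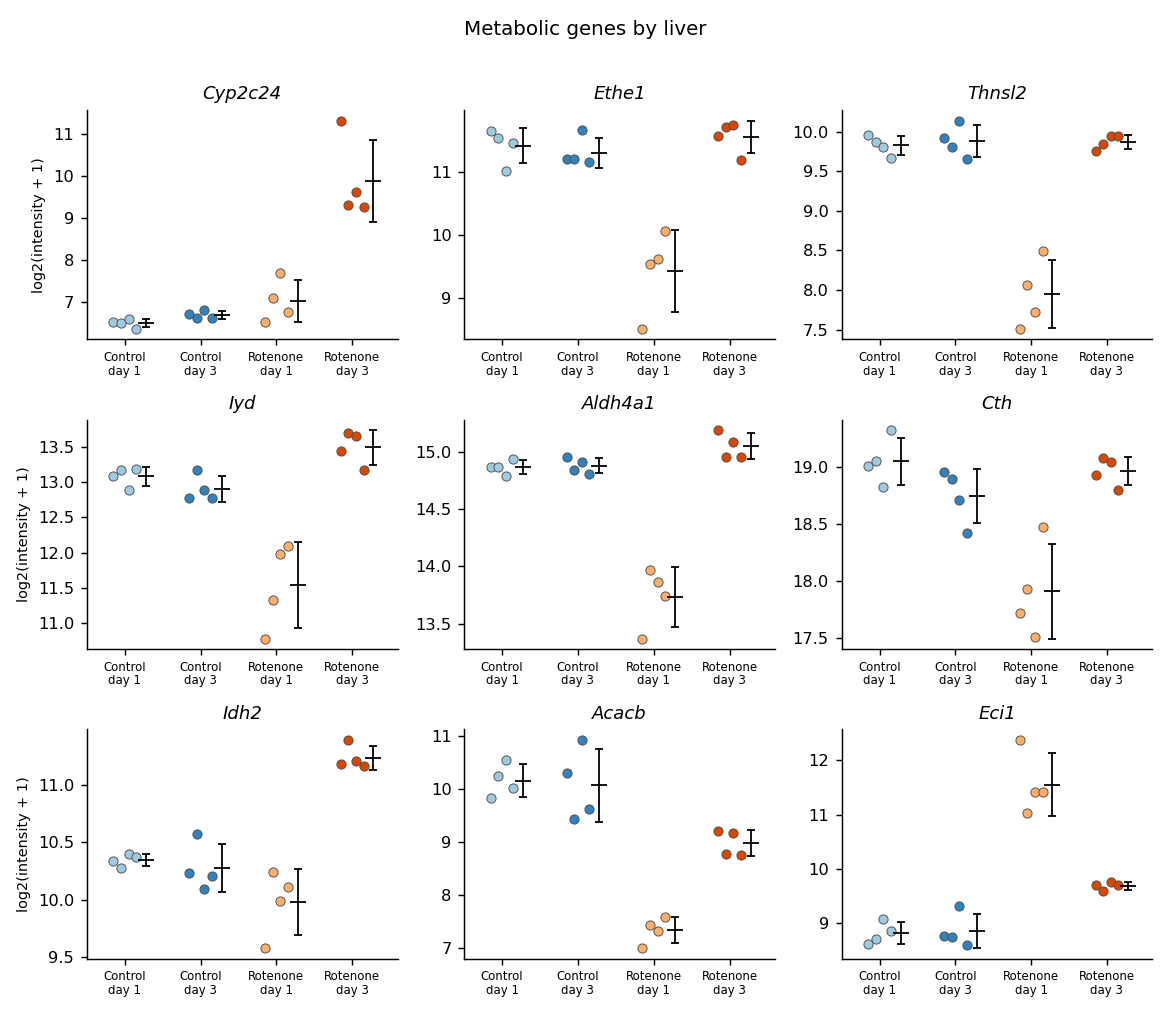
Log2(intensity + 1) of 9 metabolic genes in each liver (points, 4 per group), with the mean and SD of each group (bars). Ethe1, Thnsl2, Iyd, Aldh4a1 and Cth lie below the controls of day 1 on day 1 of rotenone and among or near the controls on day 3, Cyp2c24 and Idh2 lie above the controls on day 3, Acacb remains below and Eci1 above.

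Of 23 xenobiotic receptors and cytochromes, 2 rose (Cyp2c24 and the carboxylesterase Ces2c), against 0.679% of all genes, and 0 fell. The median was 0.45, and 1 passed without liver 1 or 3 of day 1 or liver 1 of day 3. Cyp2c24, a rat cytochrome P450, had the largest rise of the genes past the threshold. Its livers lay at 6.53, 7.10, 7.69 and 6.76 on day 1 and at 11.32, 9.32, 9.62 and 9.25 on day 3 (7.24-fold higher, 2.86 ± 0.43, adjusted p = 0.0015). Controls stayed at 6.36 to 6.80, and the difference from their change was 2.67 ± 0.60 and did not pass (adjusted p = 0.10). Liver 1 of day 3 was the highest, but the call held without it.

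Of 28 NRF2 targets and glutathione enzymes, 4 rose (Gsta2, Gsta4, Gstm2 and Gstt1), against 0.679% of all genes, and 0 fell. The median was 0.16, and 2 (without liver 1 of day 1) to 5 passed when 1 liver was left out. All 4 risen genes are glutathione S-transferases, which couple foreign compounds to glutathione, and close copies in this family leave single members uncertain. Gsta2 lay at 14.51, 15.69, 15.52 and 15.68 on day 1 and at 16.69, 16.87, 16.99 and 16.80 on day 3 (2.81-fold, 1.49 ± 0.18, adjusted p = 0.00015). The controls lay at 16.29 to 16.90, so that Gsta2 too began below and ended among them. Targets of NRF2 outside this family, such as Nqo1 (0.62, adjusted p = 0.48), Hmox1 (0.23, adjusted p = 0.72) and Gclc (-0.48, adjusted p = 0.37), did not pass.

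Over all called genes, the mean of the 4 rotenone livers lay within the range of the 4 control livers of the same day for 25 of the 150 risen genes on day 1 (16.7%) and for 34 on day 3 (22.7%). Of the 167 fallen genes, 40 lay within it on day 1 (24.0%) and 33 on day 3 (19.8%). Over all 22093 genes the shares were 51.4% and 53.8%. Of the risen genes 34 entered the control range and 25 left it, and of the fallen genes 33 entered and 40 left. The rest, which were most of both sets, lay outside the range on both days. The day change alone does not say which of these patterns a gene had.

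Matrix genes fell, and most lay below the controls on day 3. Of 22 measured collagens and matrix enzymes, 11 fell and 0 rose, all 22 had a lower mean on day 3, and the median was -0.58, against a control median of 0.17. Their median difference from controls of the same day went from 0.18 on day 1 to -0.55 on day 3. The difference from the control change passed for 7 of them, against 0.127% of all genes in this direction. Over all genes 0.756% fell. In bulk tissue, fewer cells of a type and less RNA per cell cannot be told apart. The marker lists of these cells moved the same way. Of 18 stellate cell and fibroblast markers 6 fell (Lum, Vim, Col1a2, Col1a1, Col3a1 and Colec11; the 3 collagens are in both lists), with a median of -0.56 (-0.54 with Lum at its bound) and a mean level of 8.32 to 8.79 on day 1 and 7.76 to 8.13 on day 3, against 8.29 to 8.66 in controls. Hepatocyte markers, which include albumin, did not move with them: of 12, 0 passed, with a median of -0.04 and a level of 17.50 to 17.62 on day 1 and 17.43 to 17.58 on day 3. The part of cell composition in the matrix result was not tested.

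Col1a2, a chain of the main fibrillar collagen, lay at 8.91, 9.55, 8.83 and 8.62 on day 1 and at 7.92, 7.93, 7.61 and 8.11 on day 3 (2.12-fold lower, -1.08 ± 0.19, adjusted p = 0.0062). The control mean was 0.48 higher on day 3 and did not pass (adjusted p = 0.99), and all controls (8.15 to 9.21) lay above the rotenone livers of day 3. Col14a1, a fibril-associated collagen, fell from 11.06, 10.70, 11.04 and 10.12 to 9.42, 9.66, 9.08 and 9.40 (-1.34 ± 0.20, adjusted p = 0.0011), with controls at 10.06 to 10.60. Sparc, a collagen-binding glycoprotein that was chosen after its values were seen, lay at 14.35 to 14.95 on day 1 and 13.45 to 13.96 on day 3 (-1.05 ± 0.16, adjusted p = 0.0021). Lum, a small proteoglycan, fell at least 1.24-fold (adjusted p = 0.0068), with all 4 livers of day 3 below the negative control probe sets, as were 3 of the 4 control livers of day 1, so that no difference from the control change is given.

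For Col1a2, Col14a1 and Sparc the difference from the control change was -1.57 ± 0.27, -1.51 ± 0.28 and -1.31 ± 0.23 (adjusted p = 0.019, 0.027 and 0.021). Leaving out 1 of the 16 livers lost the difference for Col1a2 in 3 cases (up to 0.058), for Col14a1 in 10 (up to 0.078) and for Sparc in 9 (up to 0.061). The matrix list had 6 to 13 fallen genes when 1 rotenone liver was left out, 6 without liver 2 of day 1 or liver 3 of day 3, and 0 when the 8 rotenone arrays were fitted alone. The stellate list had 2 (without liver 3 of day 3) to 9.

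Other cells of the sinusoid had lower markers on day 3 than on day 1 as well. The rotenone-minus-control median of endothelial markers went from 0.51 on day 1 to 0.04 on day 3. For macrophage markers it went from 0.56 to 0.19, so neither was negative on day 3, unlike that of the matrix genes. Of 13 sinusoidal endothelial markers, 3 fell (Stab1, Stab2 and Oit3), against 0.756% of all genes, with a median of -0.41. Their mean level was 10.27 to 10.96 on day 1 and 10.14 to 10.21 on day 3. In controls it was 9.89 to 10.35 on day 1 and 10.20 to 10.31 on day 3. Stab2, a scavenger receptor of this endothelium, lay at 10.62, 10.03, 10.03 and 9.62 on day 1 and at 9.02, 9.22, 9.22 and 9.24 on day 3 (1.87-fold lower, -0.90 ± 0.15, adjusted p = 0.0035). It thus lay from near or above the controls (9.42 to 9.67) on day 1 to below them (9.53 to 9.85) on day 3. Its difference from the control change did not pass (adjusted p = 0.056). The endothelial list had 1 fallen gene (without liver 1 or 2 of day 1 or liver 2 or 3 of day 3) to 5 when 1 liver was left out, and 0 with the 8 rotenone arrays alone. Oit3 (-0.99, adjusted p = 0.033) lost its call without any of 5 livers (up to 0.11). All 16 macrophage and Kupffer cell markers had a lower mean on day 3, with a median of -0.49, but 0 passed and 5 did not overlap, against 5.43% of all genes in this direction. Their mean level was 10.09 to 10.55 on day 1 and 9.64 to 10.05 on day 3. In controls it was 9.45 to 10.35 on day 1 and 9.28 to 10.03 on day 3.

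Of 11 erythroid markers, 4 fell (Hbb-b1, Alas2, Slc4a1 and Ahsp), against 0.756% of all genes. The median was -0.72 and the control median -0.29. Their mean level was 7.91 to 8.99 on day 1 and 7.34 to 7.70 on day 3, against 8.02 to 8.61 in controls. Alas2, the erythroid enzyme that starts haem synthesis, lay at 10.61, 9.24, 8.03 and 9.00 on day 1 and at 6.63, 7.46, 7.34 and 7.17 on day 3 (4.20-fold lower, -2.07 ± 0.39, adjusted p = 0.0091). Controls spread from 7.95 to 9.70, and the difference from their change was -1.48 ± 0.54 and did not pass (adjusted p = 0.43). The erythroid list had 2 fallen genes (without liver 1, 2 or 4 of day 1 or liver 1 or 3 of day 3) to 5 when 1 liver was left out, and 0 when the 8 rotenone arrays were fitted alone. Hbb-b1, a beta globin, fell by 2.46 ± 0.54 (adjusted p = 0.034), a call lost without any of 6 livers (up to 0.13), and its difference from the control change did not pass (adjusted p = 0.45). Alox15, a lipoxygenase known from rabbit reticulocytes and from leukocytes, lay at 9.46, 8.96, 7.85 and 8.30 on day 1 and at 6.02, 6.72, 6.36 and 6.25 on day 3 (-2.30 ± 0.28, adjusted p = 0.00015), below all controls (7.33 to 8.51). Blood in the tissue was not measured, and the cell source of Alox15 was not tested.

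**Figure D4:**
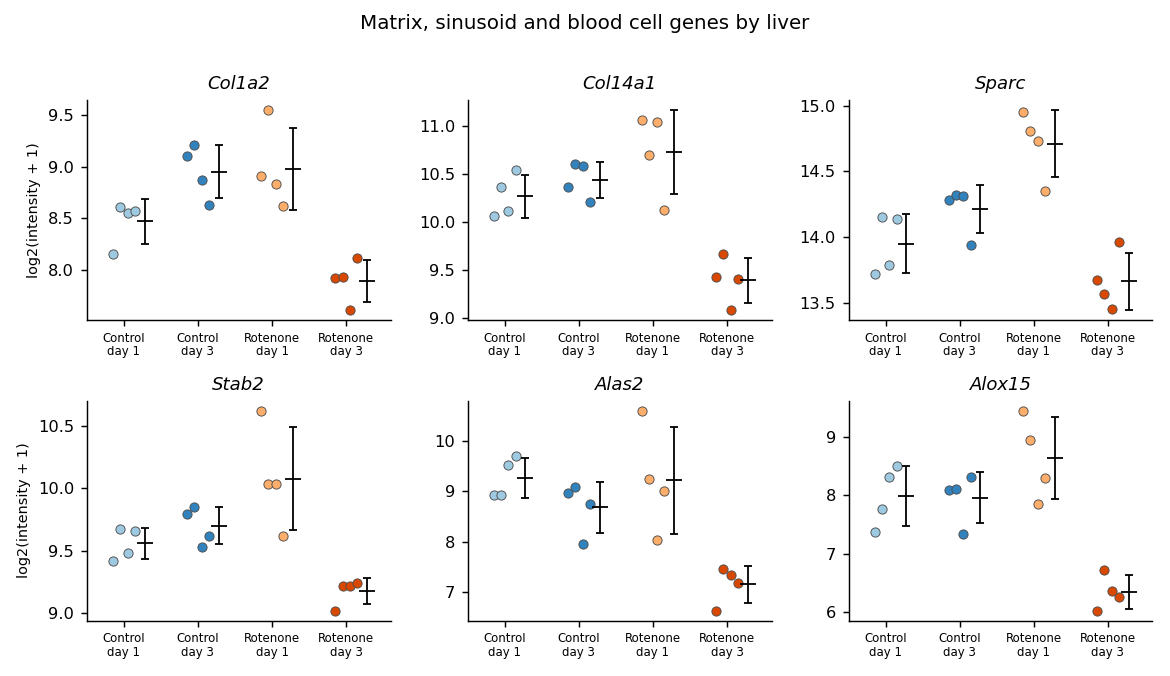
Log2(intensity + 1) of 6 genes of matrix, sinusoid and blood cells in each liver (points, 4 per group), with the mean and SD of each group (bars). In all 6 the rotenone livers of day 3 lie below those of day 1, and for Col1a2, Col14a1, Stab2, Alas2 and Alox15 they also lie below all control livers.

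Pkp2, a desmosome protein, fell from above the controls to below them, from 10.42, 10.87, 10.57 and 10.37 to 8.51, 8.79, 8.38 and 8.04, with controls at 9.28 to 9.70 (4.38-fold, -2.13 ± 0.20, adjusted p = 7e-06, difference -2.16 ± 0.29, adjusted p = 0.0025). Atf5, a factor of the mitochondrial stress response, fell from 11.00, 10.95, 11.03 and 11.13 to 10.04, 10.05, 10.06 and 10.05 (-0.98 ± 0.15, adjusted p = 0.0020), still just above the controls (9.57 to 10.03). Of 34 genes of ribosome biogenesis, 29 had a lower mean and 1 fell, Utp20 (-0.54 ± 0.10, adjusted p = 0.011), with a median of -0.25. The interferon-induced Rsad2 fell by 1.73 ± 0.30 (adjusted p = 0.0055), the only one of 28 interferon and antigen presentation genes past the threshold. Cd14, a receptor for bacterial lipopolysaccharide, rose from 9.12 to 9.66 on day 1 to 10.64 to 11.14 on day 3 (1.51 ± 0.24, adjusted p = 0.0024), above the controls of both days (8.55 to 9.65).

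In the lists of proteasome subunits (32 measured), autophagy and lysosome (29), the circadian clock (19), insulin signalling (19), complement and coagulation (26) and cholesterol synthesis (22), 0 genes passed. Of the cholesterol genes 19 had a higher mean on day 3, with a median of 0.30 and a control median of 0.24. Several single genes did not pass. Cyp7a1, the rate-limiting enzyme of bile acid synthesis, lay at 7.56, 11.13, 7.98 and 13.43 on day 1 and at 14.86, 13.11, 9.39 and 14.91 on day 3, with overlap (3.04 ± 1.19, adjusted p = 0.30). Upp2, a uridine phosphorylase, lay at 9.33 to 9.88 on day 1 and 11.32 to 12.64 on day 3 without overlap, with an adjusted p of 0.067 (2.46 ± 0.61) that was 0.016 with the 8 rotenone arrays alone. The hormone Igf1 lay at 17.87 to 18.22 on day 1 and 17.47 to 17.69 on day 3, also without overlap (-0.53 ± 0.17, adjusted p = 0.20, and 0.031 without the arrays of day 14). The clock repressor Nr1d1 did not pass (1.98 ± 0.52, adjusted p = 0.093).

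**Figure D5:**
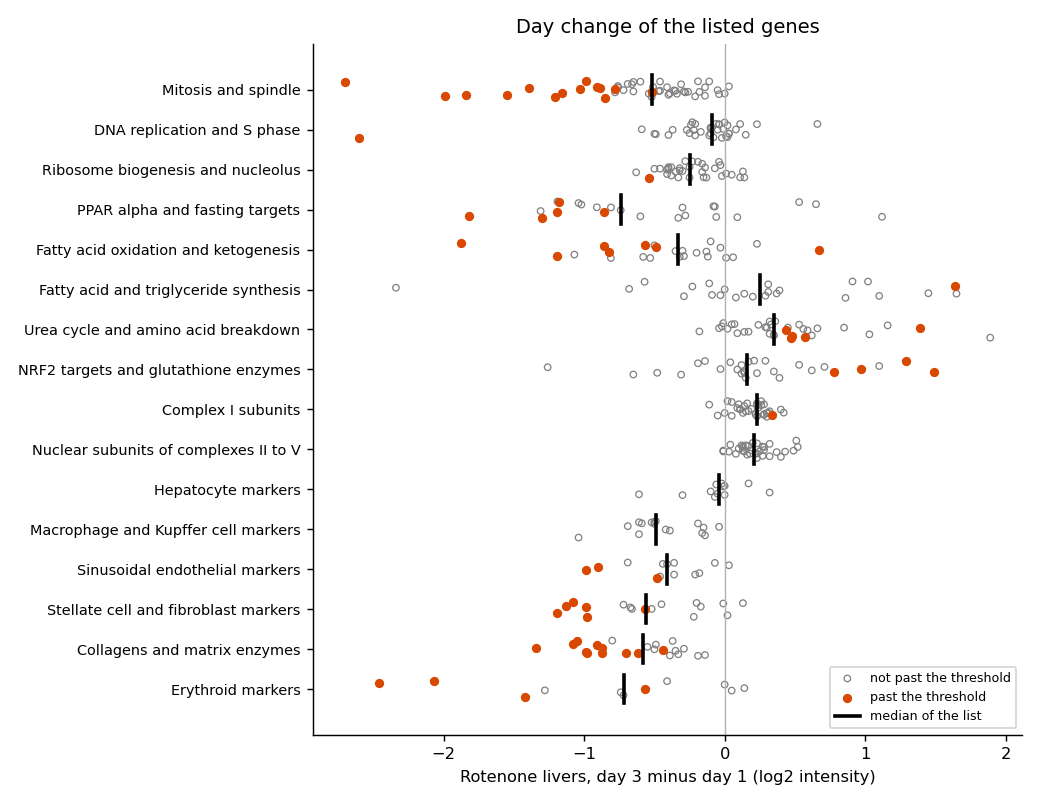
Log2 intensity of day 3 minus day 1 in rotenone livers (horizontal axis) for the measured members of 16 lists (points; filled where past the threshold), with the median of each list (black bar). The lists of mitosis, PPAR alpha targets, collagens, stellate cells and erythroid cells have medians of -0.52, -0.74, -0.58, -0.56 and -0.72, while hepatocyte markers have a median of -0.04.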

How the data were processed

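Rat liver RNA was hybridised to 24 arrays, 4 in each of 6 groups. The authors corrected the scans for probe base content (Guanine Cytosine Count Normalization), applied Signal Space Transformation and summarised them by RMA. The deposited values were linear intensity values per transcript cluster, and they were taken as log2 of the value plus 1. Of 70580 features, 1738 control probe sets were set aside, 23446 clusters carried 1 gene symbol, 505 several and 44891 none, and 38.2% of genes lay below the median negative control probe set (log2 5.25). Means of the 6 groups were fitted to 68842 clusters over all 24 arrays with limma 3.58.1 in R 4.3.3. Two-sided p-values were adjusted by Benjamini-Hochberg, and the threshold was 0.05. The contrasts were rotenone day 3 minus day 1, control day 3 minus day 1, and their difference. Replicates were separate animals, so p-values set a change against the spread between animals, pooled over the 6 groups. The number of animals limits the precision, and cages were not part of the fit. The fit was also run on simulated data with independent normal noise and 1 SD per cluster for all groups. Groups of unequal spread were therefore not tested.

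Genes named were the 12 largest rises and falls past the threshold without overlap, up to 2 rises and 2 falls per list and a set of sentinel genes, whatever their values. Other genes are said to be chosen after their values were seen. The 38 pathway and 11 marker lists were written from general knowledge, and 974 of their 1031 symbols were found, 4 under another symbol. The members and the lists were chosen with earlier results of these data known, so no list is independent support for its direction. No test was made over a list. Probe positions, scan dates and RNA quality values were not used here, and batches could not be checked. The alternatives were other sets of arrays, normalizations, filters, pseudocounts, variance priors and a replicate block, and each liver left out in turn.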

Additional observations from a re-analysis of the deposited data

Results flagged for a closer look

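Among 51 genes of the text, a single liver lay far from the other 3 of its group in 7 of 204 groups of 4, and chance alone flags about 1 in 20 such groups. Ethe1 was at 11.67 in control liver 3 of day 3, against 11.16 to 11.22 in the others. In rotenone liver 1 of day 1, Ddc was at 7.03 (others 7.50 to 7.56) and Gsta2 at 14.51 (others 15.52 to 15.69). In rotenone livers of day 3, Bhmt was at 19.05 in liver 4 (others 19.41 to 19.47) and Stab2 at 9.02 in liver 1 (others 9.22 to 9.24). In controls, Col1a2 was at 8.15 in liver 1 of day 1 (others 8.55 to 8.61) and Sparc at 13.94 in liver 4 of day 3 (others 14.28 to 14.32).

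For 23 of these genes the day change differed between rotenone and control livers (limma, adjusted p under the threshold), with the difference given as rotenone minus control on the log2 scale. It was positive for 12: Tcea3 1.97, Iyd 2.13, Thnsl2 1.87, Tstd1 1.87, Ddc 1.69, Hyal1 (a hyaluronidase) 2.02, Cth 1.36, Aldh4a1 1.31, Upb1 1.00, Slc17a1 (a phosphate transporter) 1.33, Idh2 1.33 and Gsta2 1.35. It was negative for 11: Mki67 -2.79, Ccnd1 -2.68, Eci1 -1.92, Pc -1.27, Col14a1 -1.51, Col1a2 -1.57, Sparc -1.31, the lysyl oxidase-like Loxl2 -1.11, Alox15 -2.28, Pkp2 -2.16 and Utp20 -0.75. When each of the 16 livers was left out in turn, 14 of the 23 differences passed every time. The 9 others were Utp20 (lost in 15 fits, adjusted p up to 0.13), Gsta2, Hyal1 and Loxl2 (lost in 12 each, up to 0.099, 0.10 and 0.085), Col14a1 (10, up to 0.078), Sparc (9, up to 0.061), Alox15 (7, up to 0.062), Col1a2 (3, up to 0.058) and Tstd1 (2, up to 0.058).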

How the results depend on the processing

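Against 439 clusters in rotenone livers, 77 passed with only the 8 rotenone arrays, 789 among clusters at or above the median mean, 896 among clusters with 1 symbol and 209 with at least 1.8-fold as well. The first has fewer samples, and the others test fewer clusters or add a fold limit. Leaving out 1 liver gave 229 to 550. The other settings gave 331 to 646. Against 71 clusters whose day change differed between rotenone and control, 43 passed without day 14, 152 at or above the median mean, 114 with a pseudocount of 32, 181 with 1 symbol and 46 with the replicate block, and leaving out 1 liver gave 30 to 125. The 2 control clusters became 0 without day 14, with only their own arrays, with quantile normalization, array-median centring, a pseudocount of 32, only clusters of at least median level, 1 symbol or the replicate block, 1 with at least 1.8-fold, and 0 to 1 without 1 liver. Where the construction does not show it, the cause was not tested.

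Replicate numbers are shared between groups but do not pair animals. Deviations of same-numbered rotenone livers correlated at -0.10, 0.20, 0.04 and 0.20, and 1 of 4 matched its own number best. The replicate block gave 367 clusters in rotenone livers.

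Of 67 named genes past the threshold, 44 kept their call without any 1 rotenone liver and 23 lost it at least once, and 39 lost it with the 8 rotenone arrays alone. None reversed. Of 18 named genes not past it, Scd, Upp2, Igf1 and Nr1d1 passed under at least 1 alternative. A falling gene near the negative control probe sets has only a bound.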
